A study of Macaca mulatta with 6 samples.

Results

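The 10 genes described here are imprinted in mammals: PLAGL1, L3MBTL1, SNRPN, NAP1L5, PEG3, PEG10, MEST, NNAT, GRB10 and DLK1. Each was looked up by symbol among the 30246 gene rows of the deposited tables, which hold 8 of them under their own symbol. The tables give no symbol for the rows of MEST and NNAT, and these 2 were found by Ensembl identifier through a table of gene names. Every gene had 1 row, and all 10 passed the filter on low values described below. The libraries come from rhesus monkey (Macaca mulatta) induced pluripotent stem cells, 1 per line, with 2 male naive, 2 female naive and 2 male primed lines. Naive cells resemble the epiblast before implantation and primed cells the later epiblast. The naive medium, labelled 6SM, contained LIF at 10 ng/ml and bFGF at 4 ng/ml over 15% serum replacement, with CHIR99021 at 3 µM against GSK3, PD0325901 at 0.5 µM against MEK, SB203580 at 10 µM against p38 and SP600125 at 10 µM against JNK. Primed lines were kept in hESM with 20% serum replacement and bFGF. Feeder cells had been removed from all 6 lines before RNA was taken. Donors are not given for the lines, so p-values cover only the spread between these cultures, which may be technical.

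Imprinted genes are expressed mainly from the copy inherited from one parent, because DNA methylation set in the egg or the sperm marks control regions that then keep this mark in the embryo. Most of the 10 genes, among them SNRPN, PEG3, PEG10, MEST, DLK1 and PLAGL1, are expressed from the father's copy, while GRB10 is expressed from the mother's copy in most mouse tissues. Loss or gain of imprints is a known hazard of culture and of reprogramming in pluripotent stem cells. The deposited values are levels per gene and do not separate the parental copies, so imprinting itself was not measured.

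Values are FPKM, fragments scaled by transcript length and by the mapped fragments of a library, so levels of different genes can be set side by side. Effective fragments, the number behind a value as estimated from the deposited error bounds, summed to only 1754857 and 1478692 in male naive libraries, against 7607125 to 10013491 in the other 4. Depth and the male naive group cannot be told apart, nor can sex and the female naive group in the comparison with primed lines, which were all male. Of 10 pluripotency markers 9 were tested, and 6 were called higher and 0 lower in naive lines. POU5F1, the OCT4 factor, lay between 109 and 1160 FPKM and NANOG between 0.93 and 95.9, with the primed lines lowest for both. SOX2 was at 85.3 to 122 FPKM in naive and at 141 and 124 in primed libraries, and SALL4 was highest in primed 1 (98.8). LIN28A was listed at 0 in all 6 libraries. Summed FPKM of 11 fibroblast and feeder markers ran from 113 to 144 in the male naive, 232 to 346 in the female naive and 37.7 to 303 in the primed lines, and COL1A1 and THY1 were at 7.49 FPKM or more in every library. DCN was listed at 0 in both male naive libraries. Sums of 8 mesoderm markers were 14.3 to 33.0 FPKM in naive and 3.94 to 5.08 in primed libraries, with 2 of the 4 tested called higher in naive lines, and 2 of 8 tested neural markers were called lower, beside 6.72% and 4.59% of all rows. The part of such cells in the results was not tested.

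Levels of the 10 genes ranged widely. SNRPN and NNAT were above 127 FPKM in every library, and MEST lay at 50.02 or above. By the mean over the 6 libraries PEG10, GRB10, PLAGL1 and PEG3 followed, and L3MBTL1, DLK1 and NAP1L5 were the lowest. In naive lines compared with primed lines 1 gene, SNRPN, was called higher and 3, PLAGL1, L3MBTL1 and NAP1L5, were called lower, at an adjusted p under 0.05 in limma. Over all 13685 tested rows 11.3% were called, 6.72% higher and 4.59% lower. The median log2 difference was -0.42 over the 10 genes and 0.035 over all tested rows, with 2 of the 10 above 0 and 8 below, against 53.1% and 46.9% of all rows. In 6 genes the unadjusted p was under 0.05, as in 30.9% of rows. The 4 naive and 2 primed values did not overlap for 1 gene in the higher and 3 in the lower direction, beside 34.8% of all rows (18.9% higher and 15.9% lower). Upper-quartile scaling of the libraries gave 693 higher and 878 lower calls over all rows, against 920 and 628 without it, and left the same 4 of the 10 genes called. The genes were chosen with earlier results of these data known, so these counts describe the list only.

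**Figure D1:**
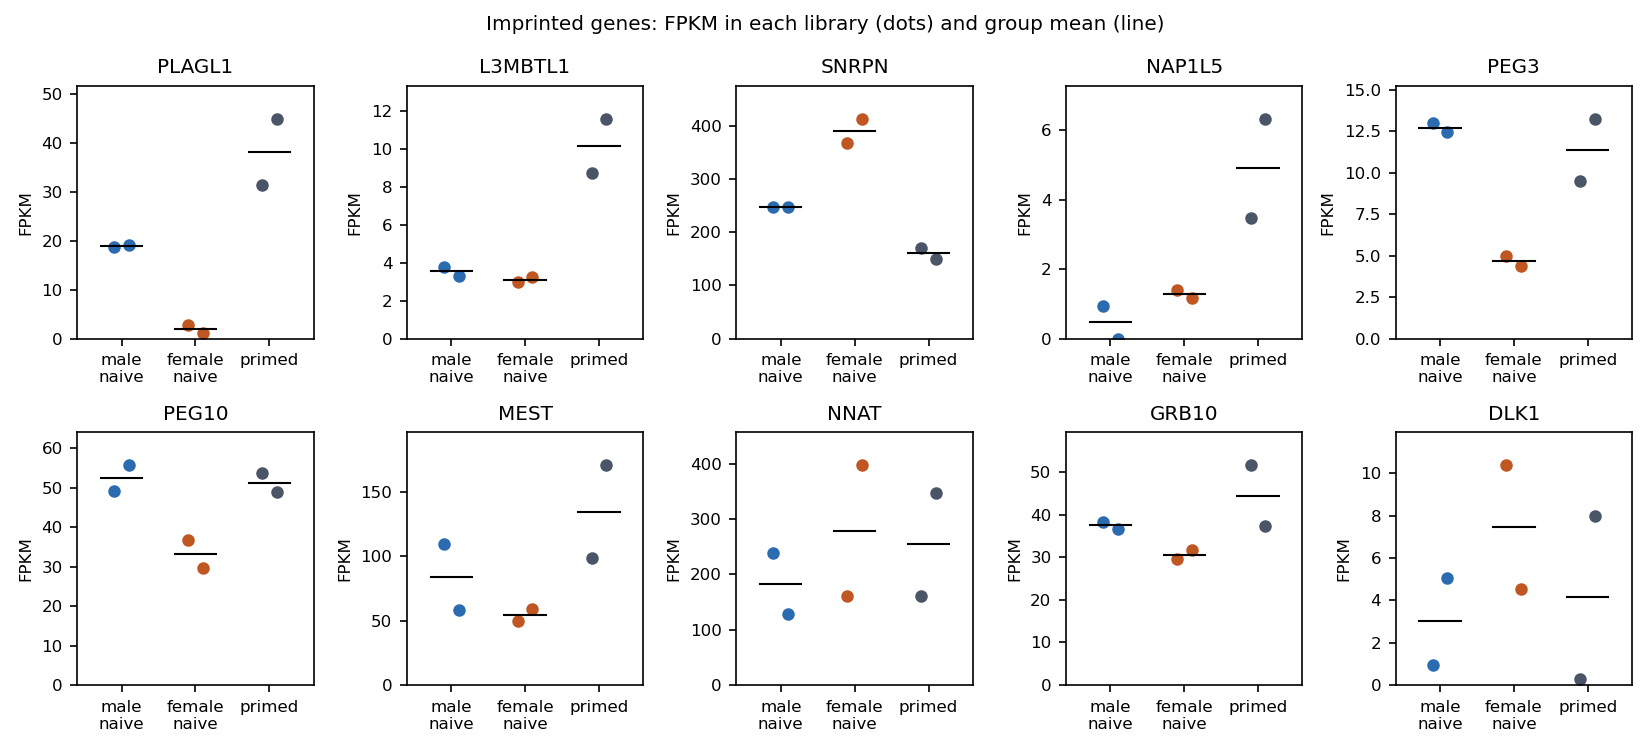
FPKM of the 10 imprinted genes (y axis, linear, 1 panel per gene) in the male naive, female naive and primed lines (x axis); dots are the 2 libraries of a group and lines their mean. PLAGL1, L3MBTL1 and NAP1L5 are highest in both primed libraries, SNRPN is lowest there, and the 2 libraries of a group lie far apart for NNAT and DLK1.

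PLAGL1 encodes a zinc finger transcription factor that restrains growth and regulates other imprinted genes. Its row (ENSMMUG00000003750, chromosome 4, 119674637 to 119739799 in the coordinates of the files) stood at 18.8 and 19.1 FPKM in the male naive, 2.74 and 1.06 in the female naive and 31.4 and 44.9 in the primed lines. The 3 groups did not overlap, and female naive lines were far below the rest. Its rank among tested rows was at percentile 62.9 and 63.6 in the male naive, 19.8 and 8.49 in the female naive and 78.0 and 84.9 in the primed lines, a rank that does not change when a whole library is rescaled. Naive lines were lower than primed lines by a log2 difference of -2.37 (SE 0.28, adjusted p = 0.0102). Without primed 1 the adjusted p was 0.051, and with sex ignored, which puts both naive groups into 1 spread, it was 0.211. Without both male naive libraries the difference was -3.80 (adjusted p = 0.0272). Between male naive and male primed lines alone the difference was -0.95 (SE 0.32) and did not pass the test (adjusted p = 0.138).

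L3MBTL1, a chromatin protein that binds methylated histones and compacts nucleosomes, was low in every naive line. Its row (ENSMMUG00000006738, chromosome 10, 20916843 to 20938087) gave 3.79 and 3.30 FPKM in the male naive, 2.98 and 3.23 in the female naive and 8.72 and 11.6 in the primed lines. All 4 naive values lay below both primed values, and the naive lines of both sexes were close to each other. The male naive values rested on only 8.46 and 9.86 effective fragments, the other libraries on 30.7 to 157. Naive minus primed, the difference for L3MBTL1 was -1.36 (SE 0.20, adjusted p = 0.0159). The call was lost when any 1 library was left out, though the direction held, at differences of -1.54 to -1.17. Leaving out both male naive libraries gave -1.43 (adjusted p = 0.0457).

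NAP1L5, a member of the nucleosome assembly protein family, had the lowest mean FPKM of the 10 over the 6 libraries, though DLK1 was lower in primed 1. The row (ENSMMUG00000010140, chromosome 5, 81662798 to 81663347) gave 0.94 FPKM in male naive 1, a listing at 0 in male naive 2, 1.41 and 1.16 in the female naive and 3.48 and 6.33 in the primed lines. These values stood on 1, 0, 7, 7, 21 and 30 effective fragments in the same order, and a count of 0 allows up to 3 fragments, for counting error only. Both primed libraries were above all naive ones. The difference was -1.69 (SE 0.36, adjusted p = 0.037), and it was not called without any 1 of the 6 libraries (adjusted p from 0.0541 to 0.131), with a replicate block (0.0718) or with a pseudocount of 0.1 (-2.85, adjusted p = 0.108). The whole NAP1L5 row lies inside the span of HERC3, a ubiquitin ligase gene, and whether reads were counted by strand is not given in the sources used here. HERC3 itself was at 0.38 to 2.34 FPKM over the 6 libraries (log2 difference -0.13, adjusted p = 0.863).

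PEG3, a large zinc finger protein, was lowest in the female naive lines. The row (ENSMMUG00000017852, chromosome 19, 62669173 to 62744676) read 13.0 and 12.5 FPKM in the male naive, 4.99 and 4.36 in the female naive and 9.50 and 13.3 in the primed lines. The female naive values lay below all others, while male naive and primed lines overlapped. Naive against primed, the difference of -0.47 (SE 0.19) was not called (adjusted p = 0.152).

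SNRPN encodes a protein of the spliceosome and lies in the Prader-Willi region. It was the 1 gene of the list called higher in naive than in primed lines. Its row (ENSMMUG00000023139, chromosome 7, 3737792 to 3908933) gave 248 and 247 FPKM in the male naive, 368 and 414 in the female naive and 170 and 150 in the primed lines. The 3 groups were fully separated, with female naive lines on top and primed lines at the bottom. Every value rested on at least 414 effective fragments. SNRPN rose by 0.95 (SE 0.11, adjusted p = 0.0102), and the adjusted p stayed between 0.0239 and 0.0492 with any 1 library left out. It was 0.0927 with sex ignored. In the males alone SNRPN rose by 0.63 (SE 0.12, adjusted p = 0.0444), a call kept under 4 of 16 alternatives, with differences down to 0.36.

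GRB10, an adaptor protein that inhibits insulin and IGF receptor signalling, stayed between 29.5 and 51.5 FPKM. The row (ENSMMUG00000019992, chromosome 3, 75569238 to 75770245) had 38.3 and 36.6 FPKM in the male naive, 29.5 and 31.7 in the female naive and 51.5 and 37.4 in the primed lines. Primed 2 fell between the male naive values, so the states overlapped. The difference was -0.37 (95% interval -0.75 to 0.013, adjusted p = 0.173), which leaves room for a fall by 0.75.

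DLK1, a membrane protein related to Notch ligands that marks immature cells, had the largest standard error of the 10 genes on the log2 scale (0.85 in naive against primed). The row (ENSMMUG00000020038, chromosome 7, 163989993 to 164014962) stood at 0.95 and 5.06 FPKM in the male naive, 10.4 and 4.55 in the female naive and 0.30 and 7.99 in the primed lines. No group stood apart, and both states held a library under 1 FPKM. These low values rested on 2.64 (male naive 1) and 5.69 (primed 1) effective fragments, the other libraries on 15.2 to 202. The difference of 0.61 had a 95% interval of -1.46 to 2.68 (adjusted p = 0.668), and it was -0.78 without primed 1. Primed 1, the lowest library for DLK1, also had the lowest sum of fibroblast markers (37.7 FPKM), against 303 in primed 2. In the naive lines the higher DLK1 value of each pair went with the lower marker sum. In the female pair only COL1A1, THY1 and PDGFRB followed that sum. The other matched markers were higher in female naive 1, as was DLK1, with LUM at 3.85 against 0.074 FPKM and POSTN at 5.32 against 0.26. The part of fibroblasts in these values was not tested. In bulk RNA, fewer cells of a type and less RNA per cell cannot be told apart.

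PEG10, derived from a retrotransposon and needed in placenta, overlapped between male naive and primed lines. Its row (ENSMMUG00000032524, on an unplaced scaffold) gave 49.2 and 55.7 FPKM in the male naive, 36.7 and 29.7 in the female naive and 53.6 and 48.9 in the primed lines. Female naive lines were the lowest, and naive against primed the difference was -0.29 (95% interval -0.62 to 0.038, adjusted p = 0.204). MEST, a hydrolase-like protein of mesoderm and its derivatives (ENSMMUG00000009499, chromosome 3, 167876834 to 167897871), measured 110 and 57.9 FPKM in the male naive, 50.02 and 58.8 in the female naive and 98.9 and 171 in the primed lines. The states overlapped through male naive 1 alone. The difference of -0.97 (SE 0.31) missed the threshold (adjusted p = 0.0975).

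NNAT, neuronatin, a small membrane proteolipid of the brain, lies with its full span (ENSMMUG00000019174, chromosome 10, 26941344 to 26943824) inside the BLCAP row (26937139 to 26947642). NNAT was at 238 and 128 FPKM in the male naive, 161 and 397 in the female naive and 162 and 348 in the primed lines. The spread within each group was wide, and the groups overlapped throughout. The difference was -0.18 (95% interval -1.34 to 0.99, adjusted p = 0.834). BLCAP, the host gene, had another pattern, with 22.1 and 27.6 FPKM in the male naive, 39.1 and 59.1 in the female naive and 19.8 and 20.0 in the primed lines (0.77, adjusted p = 0.0575). The NNAT to BLCAP ratio within a library was 10.8 and 4.63, 4.11 and 6.72, and 8.19 and 17.4 in the same order of groups.

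**Figure D2:**
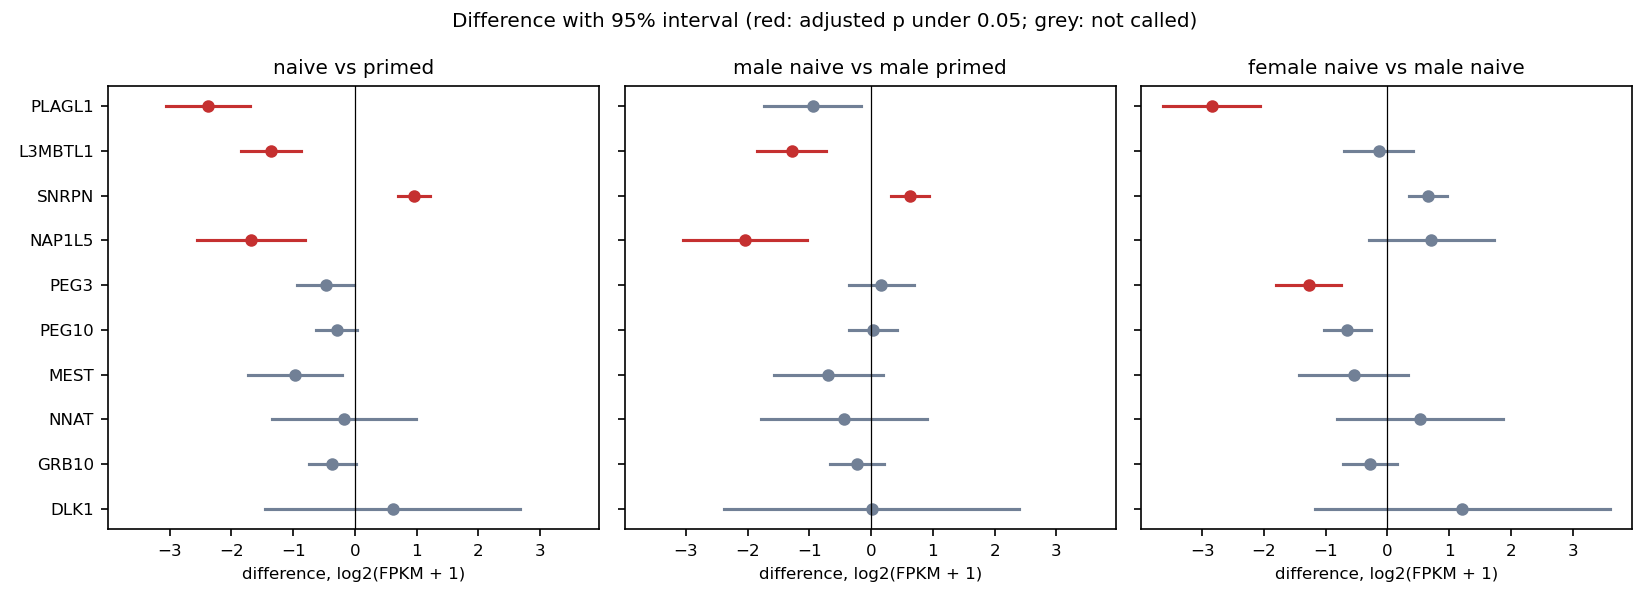
Log2(FPKM + 1) differences (x axis, points with 95% intervals) of the 10 genes (y axis) for the 3 comparisons of naive with primed, male naive with male primed and female with male naive lines; red marks an adjusted p under 0.05. PLAGL1 is called in the first and the last comparison (-2.37 and -2.85), and PEG3 in the last (-1.28). SNRPN (0.95 and 0.63), L3MBTL1 (-1.36 and -1.29) and NAP1L5 (-1.69 and -2.04) are called in the first and second. The GRB10, DLK1 and NNAT intervals cross 0 in all 3.

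Male naive and male primed lines differ in state but not in sex, and this comparison uses the same primed libraries as the one above. SNRPN was called higher and L3MBTL1 and NAP1L5 lower, and the other 7 genes were not called. Over all rows 5.39% were called, 3.97% higher and 1.42% lower. L3MBTL1 fell by 1.29 (SE 0.23, adjusted p = 0.0344) and NAP1L5 by 2.04 (SE 0.42, adjusted p = 0.0474), a difference that was -3.90 with a pseudocount of 0.1 (adjusted p = 0.101). The values of the genes not called were -0.95 for PLAGL1, 0.17 for PEG3, 0.030 for PEG10, -0.70 for MEST, -0.44 for NNAT, -0.22 for GRB10 and 0.0071 for DLK1. Their 95% intervals were wide, at -0.35 to 0.41 for PEG10 and -2.38 to 2.40 for DLK1. The median of the 10 was -0.33, with 4 above 0 and 6 below, against 57.9% and 42.0% of rows. In 4 genes the unadjusted p was under 0.05, as in 25.7% of rows. SNRPN alone did not overlap in the higher direction and PLAGL1, L3MBTL1 and NAP1L5 in the lower, beside 56.4% of all rows (34.8% higher and 21.6% lower). The 3 calls were weak. None remained with a replicate block, with a fit to these 4 libraries alone, without a filter on low values or without any 1 of the 6 libraries. SNRPN was called neither with upper-quartile scaling (0.46, adjusted p = 0.0866) nor with median-of-ratios scaling (0.51, 0.0822) nor with quantile normalization (0.36, 0.152). Calls over all rows numbered 543 higher and 195 lower as deposited, 391 and 357 with upper-quartile scaling, 399 and 294 with quantile normalization and 418 and 255 with median-of-ratios scaling. The median over all rows went from 0.090 to -0.057 with upper-quartile scaling.

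Between the sexes in 6SM medium, PLAGL1 and PEG3 were lower in the female than in the male naive lines. The log2 difference was -2.85 for PLAGL1 (SE 0.32, adjusted p = 0.0108) and -1.28 for PEG3 (SE 0.22, adjusted p = 0.0386). In limma 2 of the 10 genes were called lower and 0 higher, and 4 had an unadjusted p under 0.05, as did 21.7% of rows. Over all rows 3.31% were called, 0.76% higher and 2.55% lower. SNRPN, at 0.65 (SE 0.12), just missed the threshold (adjusted p = 0.0506). It was called higher with upper-quartile scaling (0.78, adjusted p = 0.0369), whereas PEG3 then was not (-1.16, adjusted p = 0.0573). That scaling moved the median over all rows from -0.10 to 0.0083. With median-of-ratios scaling and with quantile normalization SNRPN was likewise called and PEG3 was not. PLAGL1 was not called without male naive 1 (adjusted p = 0.0852), male naive 2 (0.101) or female naive 2 (0.0728), and PEG3 not without any 1 of the 4 naive libraries (0.133 to 0.212). PEG10 was at -0.65 (SE 0.16, adjusted p = 0.0877), with both female values below both male values. L3MBTL1 differed by -0.14 (95% interval -0.70 to 0.41). The remaining values were 0.71 for NAP1L5, -0.55 for MEST, 0.53 for NNAT, -0.29 for GRB10 and 1.21 for DLK1, with adjusted p from 0.384 to 0.632. The median of the 10 was -0.21, with 4 above 0 and 6 below, against 39.1% and 60.8% of rows. SNRPN and NAP1L5 did not overlap in the higher direction and PLAGL1, L3MBTL1, PEG3, PEG10 and GRB10 in the lower, beside 57.0% of all rows (19.4% higher and 37.6% lower). Calls over all rows numbered 104 higher and 349 lower as deposited, 118 and 224 with quantile normalization and 114 and 219 with median-of-ratios scaling. The female libraries also differ in depth, and no female primed line was analysed here, so sex, line and depth cannot be told apart.

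Across the 6 libraries some of the genes ran together. Pearson's r of log2(FPKM + 1) was 0.93 between PLAGL1 and PEG3, 0.92 between PLAGL1 and PEG10, and -0.96 between PLAGL1 and SNRPN. These are descriptions over 6 points that share their groups and depth. Among 8860 named rows with a mean of 5 FPKM or more, the 3 most like PLAGL1 were ZNF318, GPSM2 and GLTP (r = 0.998, 0.997 and 0.996), and 191 rows had r above 0.95. Most like SNRPN were GFM2, TOX and TMEM64 (0.999, 0.998 and 0.997), with 159 rows above 0.95. L3MBTL1 was most like PEX6, the small RNA U6atac and PTPRS (0.993, 0.993 and 0.992), with 84 rows above 0.95. For NAP1L5 they were PHKB, DENND6A and KLC4 (0.993, 0.993 and 0.988), with 25 rows above 0.95.

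Imprinted genes lie in clusters, and genes of the same loci, or for MZF1 only of the same chromosome, were read from a fixed list. Of the tested genes on it LTV1, SF3B5 and COBL were called in naive against primed lines, where 11.3% of all rows were called. Around PLAGL1 neighbours were called in both directions. LTV1, a ribosome biogenesis factor, was at 86.3 and 88.5 FPKM in the male naive, 79.1 and 67.1 in the female naive and 59.6 and 47.3 in the primed lines. It rose by 0.58 (adjusted p = 0.0491), while the splicing factor gene SF3B5 fell by 0.71 (adjusted p = 0.0478). Neither was called with any 1 library left out (adjusted p from 0.0665 to 0.134 and from 0.0539 to 0.177). PLAGL1 relative to LTV1 within a library was 0.218 and 0.216 in the male naive, 0.0346 and 0.0159 in the female naive and 0.526 and 0.95 in the primed lines, a ratio that no scaling of a library changes. PHACTR2 was not called (0.63, adjusted p = 0.157). At the L3MBTL1 locus the splicing factor SRSF6 (0.21, adjusted p = 0.469) and the cilia gene IFT52 (-0.26, adjusted p = 0.418) were not called.

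In the Prader-Willi region NDN, necdin, which is also expressed from the father's copy, was highest in the primed lines. NDN was at 3.97 FPKM in male naive 1, listed at 0 in male naive 2, at 1.80 and 8.58 in the female naive and at 15.9 and 12.7 in the primed lines. All 4 naive values were under both primed values, but the difference of -2.16 (SE 0.74) was not called (adjusted p = 0.109). UBE3A, a ubiquitin ligase imprinted in neurons, had 27.2 to 32.9 FPKM in naive and 21.6 and 21.3 in the primed lines (0.45, adjusted p = 0.0576). MKRN3 reached 1 FPKM only in primed 1 (1.31) and was not tested. The SNRPN to UBE3A ratio was 8.82 and 9.07 in the male naive, 11.9 and 12.6 in the female naive and 7.90 and 7.07 in the primed lines.

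**Figure D3:**
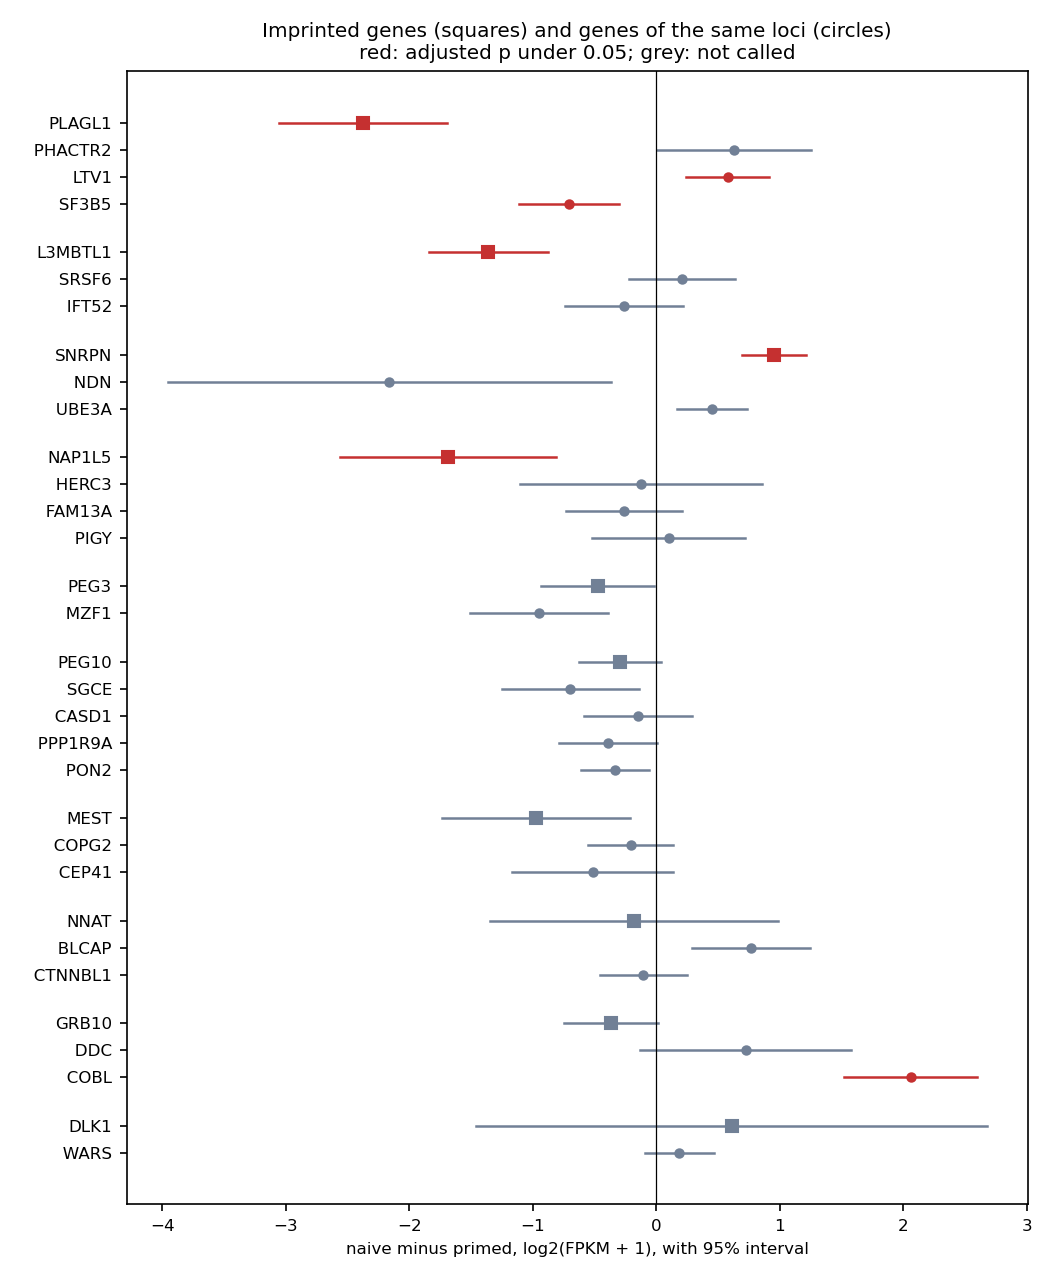
Naive minus primed differences (x axis, log2(FPKM + 1), with 95% intervals) for the 10 imprinted genes (squares) and the tested genes listed with them (circles). They are grouped by locus on the y axis, where MZF1 shares only the chromosome of PEG3. Red marks an adjusted p under 0.05. COBL beside GRB10 (2.06) is the neighbour with the largest rise, and NDN (-2.16) and SNRPN (0.95) lie on opposite sides of 0.

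Beside GRB10 the actin nucleator COBL (chromosome 3, 75050790 to 75339914) rose, at 11.5 and 12.3 FPKM in the male naive, 18.6 and 16.3 in the female naive and 1.97 and 3.59 in the primed lines. Both naive groups were well above the primed lines (2.06, SE 0.22, adjusted p = 0.00966), and COBL was called under all 17 alternatives. DDC, also of the GRB10 locus, was not called (0.73, adjusted p = 0.22). The SGCE gene, a paternally expressed partner of PEG10, was at 5.92 to 8.68 FPKM in naive and 9.80 and 16.4 in the primed lines (-0.69, adjusted p = 0.101). COPG2, which overlaps the MEST row by 48 bases, did not pass the test either (-0.21, adjusted p = 0.376). The other tested genes of the list were not called. PIGY and FAM13A beside NAP1L5 were at 0.10 and -0.26, and CEP41 near MEST at -0.51. CASD1, PPP1R9A and PON2 near PEG10 were at -0.15, -0.39 and -0.33. CTNNBL1 near NNAT was at -0.10 and WARS near DLK1 at 0.19. MZF1, listed with PEG3, was at -0.95 (adjusted p = 0.0506). It lies at 64333277 to 64343854 on chromosome 19 and is not adjacent to PEG3.

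The row that follows DLK1 on chromosome 7 (ENSMMUG00000005470, 164112702 to 164143738) has no symbol in the tables used here. It lies between DLK1 and RTL1 (164164946 to 164167160). Whether it belongs to MEG3, which is listed for this locus but had no matched row, was not tested. The row was at 1.58 and 0.27 FPKM in the male naive, 45.5 and 17.4 in the female naive and 16.5 and 48.1 in the primed lines. Both male naive libraries were far below the other 4, a split that DLK1 did not show. Naive against primed, the groups overlapped and the difference of -2.01 was not called (adjusted p = 0.0723). The difference was -4.02 for male naive against male primed (SE 0.66, adjusted p = 0.0274) and 4.02 for female against male naive (SE 0.66, adjusted p = 0.0359). Its effective fragments were few and uneven, at 6.28 and 0.51 in the male naive, 83.4 and 20.3 in the female naive and 3.61 and 88.9 in the primed lines. The call in male naive against male primed lines was lost without any 1 library, at differences of -4.76 to -3.28. The call in female against male naive lines was lost without any 1 naive library, at 3.35 to 4.69. Of the same region, DIO3 stayed at 0.66 FPKM or less and BEGAIN reached 1 FPKM only in female naive 2 (1.34), so neither was tested.

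**Figure D4:**
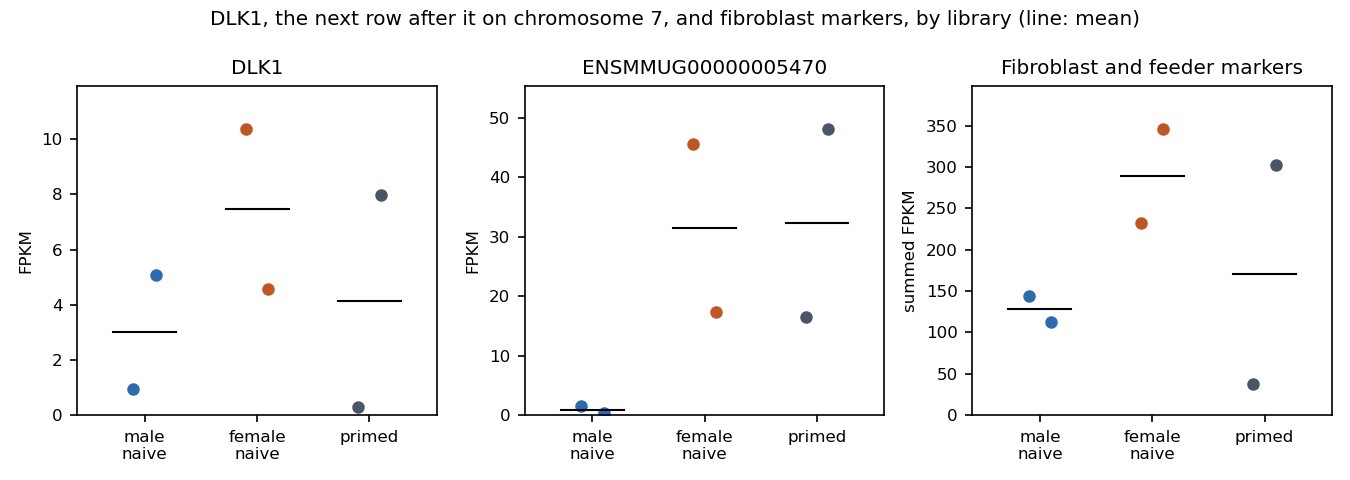
FPKM of DLK1 and of the next row on chromosome 7, and summed FPKM of 11 fibroblast and feeder markers (y axes, linear), in the male naive, female naive and primed lines (x axis); dots are libraries and lines group means. The second row is at 1.58 FPKM or less in both male naive libraries and at 16.5 or more elsewhere, while DLK1 and the markers spread within the primed group.

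A wider list of 62 other imprinted genes, some of them imprinted in only some tissues or mammals, gave 48 with a row and 30 that were tested. Of these 30, 1 was called higher and 2 lower in naive lines, beside the background of 11.3%, with a median of -0.014. TFPI2, a protease inhibitor, was at 3.50 and 4.36 FPKM in the male naive, 19.6 and 13.2 in the female naive and 0.84 and 1.86 in the primed lines. It rose by 2.00 (SE 0.27, adjusted p = 0.0138), but was not called without male naive 1 (0.0504), male naive 2 (0.0556), female naive 1 (0.0507) or primed 1 (0.0638). ZDBF2, a zinc finger gene, fell by 1.14 (adjusted p = 0.0444), from 9.93 and 8.48 FPKM in primed to 5.41 and 4.68 in male and 3.61 and 1.71 in the female naive lines. Without any 1 library its adjusted p was 0.0503 to 0.172. SLC22A18, a transporter of the KCNQ1 cluster, was listed at 0 in both male naive libraries, at 2.49 and 5.05 FPKM in the female naive and at 9.18 and 5.14 in the primed lines. Its call (-1.88, adjusted p = 0.024) rested on at most 9 effective fragments per library and was kept with primed 2 left out, but not with any other library left out (0.0521 to 0.104). Without both male naive libraries it was at -0.78 (adjusted p = 0.273). Between male naive and male primed lines SLC22A18 was the 1 gene of the 30 called (lower), and in female against male naive lines it and TFPI2 were called higher, beside 5.39% and 3.31% of all rows called in these comparisons. The first call was lost without male naive 1, male naive 2 or primed 1 (adjusted p from 0.0624 to 0.0927), and the other 2 were lost without any 1 of the 4 naive libraries (0.0892 to 0.211 and 0.151 to 0.193). IGF2, H19, MEG3 and CDKN1C were among the 14 genes without a row matched by symbol, and unnamed rows were not assigned to them.

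Of 22 genes that set, protect or remove DNA methylation or imprints, 16 were tested. In limma 3 were called higher and 0 lower in naive lines, with 5 at an unadjusted p under 0.05. Over all rows 6.72% were called higher and 30.9% had an unadjusted p under 0.05. DNMT3B, a de novo DNA methyltransferase, was at 107 and 114 FPKM in the male naive, 209 and 177 in the female naive and 33.4 and 41.9 in the primed lines (1.94, SE 0.14, adjusted p = 0.00396). ZFP57, which binds methylated imprinting control regions, had 9.92 and 9.84 FPKM in the male naive, 12.5 and 15.5 in the female naive and 4.48 and 4.73 in the primed lines. It rose by 1.19 (SE 0.17, adjusted p = 0.0144). DNMT3A, the other de novo enzyme, rose by 0.77 (adjusted p = 0.0311). This call was kept without female naive 1 and lost without any other 1 library (0.0772 to 0.0961). The ZFP57 call was lost without male naive 1 (0.0593), male naive 2 (0.0606), female naive 2 (0.0553) or primed 1 (0.0639). The maintenance methyltransferase DNMT1 (-0.13, adjusted p = 0.498) and the ZFP57 partner TRIM28 (0.089, adjusted p = 0.621) were not called, nor was the histone methyltransferase EHMT2 (-0.46, adjusted p = 0.13). In male naive against male primed lines DNMT3B and ZFP57 were called higher (1.54 and 0.96), ZFP57 not without any 1 library (adjusted p from 0.0816 to 0.192) and DNMT3B not without male naive 1 (0.0662) or male naive 2 (0.0849), and in female against male naive lines 0 of the 16 were called, with 4 at an unadjusted p under 0.05. The shares of all rows were 3.97% called higher in the first of these comparisons, and 3.31% called and 21.7% at an unadjusted p under 0.05 in the second.

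**Figure D5:**
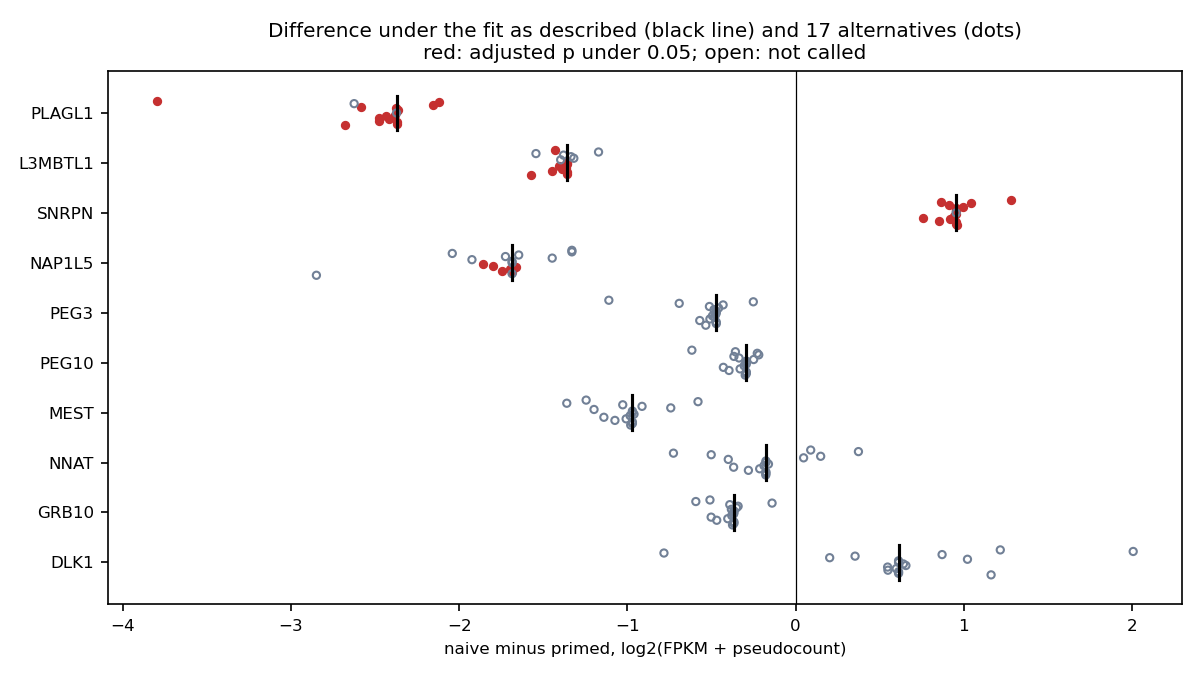
Naive minus primed differences of the 10 genes (y axis) on the log2 scale (x axis) under the fit as described (black line) and 17 alternative settings (dots); red dots have an adjusted p under 0.05. PLAGL1, L3MBTL1, NAP1L5 and SNRPN keep their side of 0 in all 17, and NNAT and DLK1 cross it.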

How the data were processed

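The authors computed FPKM in each library, and the deposited tables give it with error bounds and a status, per the file headers. TopHat 1.3.0 aligned the reads, per the submitters' processing notes. Neither the genome build nor the quantifier is given in the sources used here. Coordinates are as in the files. Titles and the gender label gave the groups. Effective fragments were estimated from the bounds, which lie 2 SD from the value: FPKM was divided by 1 SD and squared.

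A row was tested where 2 or more of the 6 libraries had an FPKM of at least 1 and the status was OK in all 6. The model was limma 3.58.1 (R 4.3.3) on log2(FPKM + 1), with group means and a trend. P-values are two-sided and Benjamini-Hochberg adjusted over 13685 rows, and those under 0.05 were called. This scale understates changes of low genes. The fit was also run on simulated data with planted changes and, beyond counting error, the same spread for all genes. Real genes differ in spread, so this does not test the calls made here.

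The 10 genes and all lists were chosen with earlier results of these data known. Named beside them are tested genes of the locus list, up to 4 genes of the other lists with the smallest p, and for each called gene the 3 rows with the highest Pearson r. DNMT1, TRIM28, ENSMMUG00000005470 and the markers named were picked after their values were seen. No sequence was analysed here.

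Alternatives were a pseudocount of 0.1, 2 other filters, 4 scalings, precision weights, other groupings, a replicate block and leaving out each library. A group left with 1 library is then assumed to vary like the others.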

Additional observations from a re-analysis of the deposited data

Results flagged for a closer look

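Among the 4 naive libraries MEST was at 109.9 FPKM in male naive 1, against 57.9, 50.02 and 58.8 in the other 3, a gap to its neighbour that was large for the range of the group. The other 9 genes had no such library. Chance alone gives such a gap in about 5% of groups of like libraries. The 4 naive libraries pool male and female lines, and 10 genes were checked.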

How the results depend on the processing

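Over the 3 comparisons the 10 genes gave 490 values under alternatives. Of these 396 kept their direction and side of the threshold, 64 were no longer called, 9 became called and 21 changed sign, all of the last in genes that were not called. Of the 278 alternatives for the 17 calls in other named genes, 162 held, 116 were no longer called and 0 changed sign.

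The number of the 10 genes called in naive against primed lines was 4, and 1 with sex ignored and 1 to 2 with 1 library left out. In male naive against male primed lines it was 3, and 0 with no filter on low values, 0 with only the compared groups in the fit, 0 with a replicate block and 0 to 0 with 1 library left out. In female against male naive lines it was 2, and 1 with no filter, 1 with a replicate block and 0 to 3 with 1 library left out. Using the 8 genes named by the files alone, chosen after seeing the data, gave 4, 3 and 2. With the replicate block the all-row counts were 502 higher and 310 lower, 296 and 77, and 34 and 173. Same-numbered libraries did not deviate in the same direction over the tested rows (r = -0.060, -0.050 and -0.26 between pairs of groups). Whether same-numbered lines share a donor or batch cannot be told from this.

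Changes of sign: NNAT in naive against primed lines ranged from -0.73 to 0.37 with 1 library left out and was 0.089 without both male naive libraries, and DLK1 ranged from -0.78 to 2.01. In male naive against male primed lines PEG10 was -0.14 with upper-quartile scaling, -0.081 with median-of-ratios scaling, -0.17 with quantile normalization and -0.0060 with short rows left out, and DLK1 was -0.10, -0.063 and -0.13 with the first 3. With 1 library left out PEG10 ranged from -0.056 to 0.12, PEG3 from -0.054 to 0.39, GRB10 from -0.45 to 0.0023, NNAT from -0.99 to 0.11 and DLK1 from -1.39 to 1.40. NNAT in female against male naive lines ranged from -0.12 to 1.18. The cause was not tested. No gene had a second row to sum. Over all rows 1548 were called in naive against primed lines, 250 with sex ignored, 625 without both male naive libraries, 941 with no filter and 177 (without primed 1) to 1081 (without primed 2) with 1 library left out. In the male comparison 738 were called, 400 with no filter, 348 with only the compared groups and 51 (without male naive 2) to 626 (without primed 2) with 1 left out. In the female comparison 453 were called, 268 with no filter and 41 (without male naive 2) to 523 (without primed 2) with 1 left out. Male naive depth limits NAP1L5, L3MBTL1 and DLK1 most.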
